A study of Mus musculus with 6 samples.

Results

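The S100a transcripts described here are those of S100a1, S100a4, S100a6, S100a8, S100a9, S100a10, S100a11 and S100a13, which encode small calcium-binding proteins. They were chosen by the gene symbol in the array's annotation, and all 8 genes were present, on 9 of 25344 probes, among 18391 named genes. Total RNA of mouse testis, of mouse epididymis and of the stromal vascular fraction (SVF) of mouse adipose tissue was compared on 6 two-colour arrays. SVF is the mixture of cells left when adipocytes are removed from fat, and holds progenitors, endothelial cells and immune cells. Each pair of tissues shared 2 arrays with the Cy3 and Cy5 dyes exchanged, which gives 3 dye swaps. The series text names 3 RNA samples, 1 per tissue. The labels state no strain, age, number of animals or treatment.

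S100 proteins carry a pair of EF-hands, the helix-loop-helix fold that holds a calcium ion, and most work as dimers that bind a target protein once calcium is bound. S100a8 and S100a9 form calprotectin, the metal-binding complex that fills the cytosol of neutrophils and is also made by monocytes. S100a4 and S100a6 are abundant in fibroblasts and other motile cells, and S100a10 and S100a11 pair with annexins, which dock on membranes. In adipose tissue S100a8 and S100a9 are known from infiltrating myeloid cells.

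Each value below is a log2 ratio of 2 tissues, and the RNA of a tissue is the same on both arrays of a dye swap. A mean is given ± SD over 2 hybridisations, an error that leaves out differences between animals, so tissues were compared by size alone, with no p-value. The size rule used below calls a gene higher in a tissue where both arrays show at least a 2-fold difference that way. The logarithm was read as base 2 by convention, and the direction, Cy5 over Cy3, is likely rather than stated, because each title names the Cy5 tissue first. With it, testis exceeded SVF for 13 of 14 late spermatid genes and 7 of 11 Sertoli and Leydig cell genes (20.7% of named genes). Epididymis exceeded SVF for 14 of 14 epididymal duct genes (10.2% of named genes). SVF exceeded testis for 17 of 17 fibroblast and stromal genes (16% of named genes). These lists were chosen with earlier results of these data known. The dye-exchanged arrays correlated across all probes, once the sign was turned, with Pearson's r of 0.864 in the testis over SVF pair, 0.644 in that of epididymis over SVF and 0.773 in that of epididymis over testis. Genes are not independent replicates in these correlations.

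The promoter windows of 4 members are shown because they belong to the calprotectin pair (S100a8 and S100a9), to the member whose probes disagreed (S100a4), and to neighbours that share a window yet differed in ratio (S100a13 and S100a1). They are RefSeq windows of GRCm38.p6, from 250 bases before to 50 bases after the annotated start, written 5′ to 3′ on the gene's strand. Windows were found for 7 of the 8 members, all but S100a10. In the first 3, capitals mark matches on either strand to the TATA box letters TATAAA, the AP-1 letters TGANTCA, the C/EBP letters TTGCNNAA, the NF-kB letters GGNNTTTCC or the SP1 letters GGGCGG, and no marked matches overlap. In the last one, capitals mark the 204 bases that the S100a13 window shares with that of S100a1, which is transcribed the opposite way.
S100a8, chr3:90668821-90669120, plus strand: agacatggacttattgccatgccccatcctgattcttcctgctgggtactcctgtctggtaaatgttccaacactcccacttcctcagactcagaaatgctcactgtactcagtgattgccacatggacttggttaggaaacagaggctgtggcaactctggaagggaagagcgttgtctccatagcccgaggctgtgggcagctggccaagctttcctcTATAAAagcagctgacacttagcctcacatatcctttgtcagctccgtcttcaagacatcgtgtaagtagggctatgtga
S100a9, chr3:90695672-90695971, minus strand: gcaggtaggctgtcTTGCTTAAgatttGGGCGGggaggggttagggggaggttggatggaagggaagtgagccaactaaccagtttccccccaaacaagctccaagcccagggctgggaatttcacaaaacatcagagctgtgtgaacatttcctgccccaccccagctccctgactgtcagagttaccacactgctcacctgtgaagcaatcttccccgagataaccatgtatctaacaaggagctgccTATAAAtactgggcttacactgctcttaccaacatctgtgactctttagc
S100a4, chr3:90603520-90603819, plus strand: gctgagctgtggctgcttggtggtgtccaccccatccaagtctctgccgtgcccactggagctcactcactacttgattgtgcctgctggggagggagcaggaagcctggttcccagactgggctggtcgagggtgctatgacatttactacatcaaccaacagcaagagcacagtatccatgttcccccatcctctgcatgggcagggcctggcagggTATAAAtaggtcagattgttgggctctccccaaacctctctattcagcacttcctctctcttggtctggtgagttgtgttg
S100a13, chr3:90514185-90514484, plus strand: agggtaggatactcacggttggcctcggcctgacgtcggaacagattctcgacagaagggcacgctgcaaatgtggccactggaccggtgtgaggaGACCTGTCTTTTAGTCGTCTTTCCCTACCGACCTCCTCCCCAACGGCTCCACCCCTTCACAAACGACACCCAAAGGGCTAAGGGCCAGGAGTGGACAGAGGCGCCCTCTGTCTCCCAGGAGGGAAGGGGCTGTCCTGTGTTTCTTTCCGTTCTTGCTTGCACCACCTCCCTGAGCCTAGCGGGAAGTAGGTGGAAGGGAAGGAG

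TATAAA began at base 221 of the S100a8 window, base 220 of the S100a4 window and base 251 of the S100a9 window, just past the first 250 bases. It was found in 3 of the 7 member windows and in 13.6% of all 32851 windows. TTGCNNAA was found in 1 member window, that of S100a9, and in 10.8% of all windows. TGANTCA was found in 1, that of S100a11, and in 7.81% of all windows. GGGCGG was found in 2, S100a9 and S100a11, against 35.7% of all windows, and GGNNTTTCC in 0, against 5.82% of all windows. A match is a description of the letters only.

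In SVF all 8 members stood above testis, and most stood above epididymis. By the size rule SVF exceeded testis for 8 of 8 members and for 16% of named genes. The median log2 ratio of testis over SVF was -4.12 over the members and 0.0046 over all named genes. SVF exceeded epididymis for 6 of 8 members and for 8.68% of named genes. The median log2 ratio of epididymis over SVF was -2.97 over the members and 0.0715 over all named genes. Epididymis was higher than testis for 5 of 8, where 14.3% of named genes were, with a median of 1.82 against -0.0035 over all named genes. The rule was met in the opposite direction by 0 of 8 members in each comparison, where 20.7% of named genes were higher in testis than SVF, 10.2% in epididymis than SVF and 18% in testis than epididymis. In these whole-tissue RNAs, fewer cells of a type and less RNA per cell cannot be told apart. At 4-fold on both arrays, SVF exceeded testis for 7 members and for 7.6% of named genes, 6 were higher in SVF than in epididymis (3.65%) and 3 were higher in epididymis than in testis (4.98%).

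**Figure D1:**
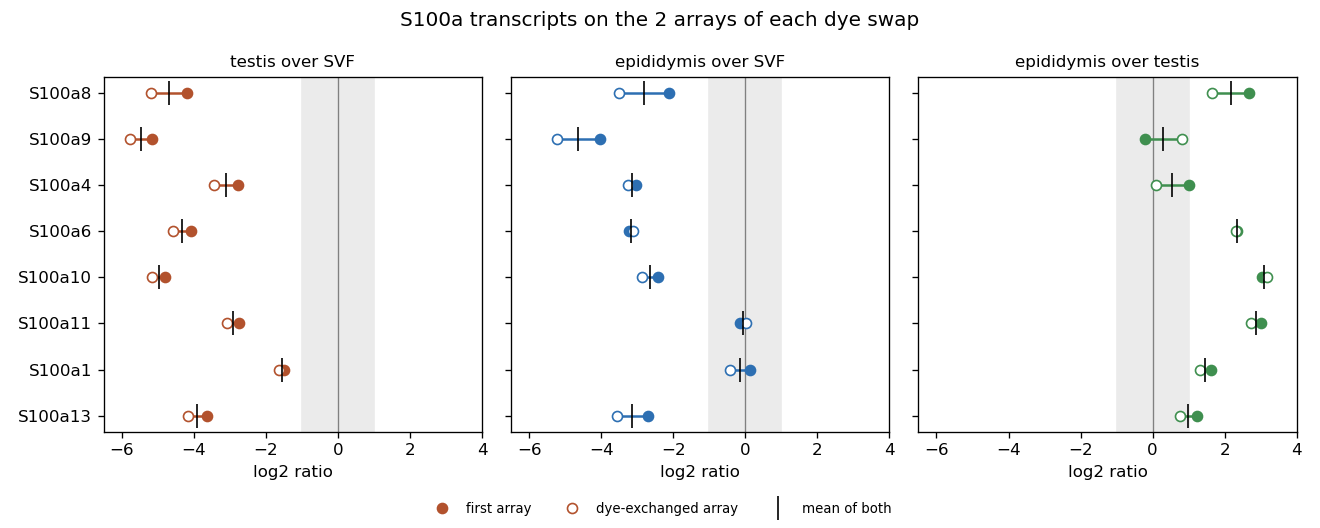
Log2 ratios of the 8 S100a transcripts in testis over SVF, epididymis over SVF and epididymis over testis. Filled and open points are the first and the dye-exchanged array, a black tick is their mean, and the grey band marks ratios under 2-fold. All 8 lie left of the band in testis over SVF, and S100a11 and S100a1 lie inside it in epididymis over SVF. In epididymis over testis S100a9 lies inside it on both arrays. There S100a4 and S100a13 lie inside it by their mean and the dye-exchanged array.

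The calprotectin pair stood far below SVF in testis and epididymis, with S100a9 the lower of the pair in both. S100a8 had log2 ratios of testis over SVF of -4.20 and -5.18 on the 2 arrays, a mean of -4.69 ± 0.69, so that SVF was 25.8-fold higher. S100a9, its partner, had -5.15 and -5.76, a mean of -5.45 ± 0.43 and a fold of 43.8, the lowest testis over SVF ratio of the 8 members. The S100a8 ratio was above the S100a9 ratio there by 0.94 and 0.58 log2 units on the 2 arrays, a mean of 0.76 ± 0.26. In epididymis over SVF, S100a8 stood at -2.12 and -3.50 (mean -2.81 ± 0.97) and S100a9 at -4.04 and -5.24 (mean -4.64 ± 0.85). Here S100a8 was above S100a9 by 1.92 and 1.74 log2 units, a mean of 1.83 ± 0.13. In epididymis over testis S100a8 was 4.49-fold higher in epididymis, with 2.68 and 1.66, while S100a9 had -0.22 and 0.81 and was not counted. The difference between the 2 genes in that comparison was 2.90 on one array and 0.84 on the other (SD 1.45), so its size is poorly set. The sum around the 3 dye swaps, which is 0 without error, was 0.29 for S100a8 and -0.52 for S100a9.

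Neutrophil and macrophage genes are given beside this pair. Of all named genes, SVF exceeded testis for 16% and the reverse held for 20.7%. SVF exceeded epididymis for 8.68% and the reverse held for 10.2%. Epididymis exceeded testis for 14.3% and the reverse held for 18%. Of 18 measured neutrophil genes, 6 stood higher in SVF than testis and 1 lower, and the list's median was -0.69. Retnlg, a resistin-like gene of neutrophils, stood at -5.49 ± 0.67 and the gelatinase gene Mmp9 at -4.07 ± 0.55. Clec4d stood at -3.83 ± 0.30, Il1r2 at -3.56 ± 1.14 and Chil3 at -2.51 ± 0.34. The granule genes Mpo (0.05 ± 0.59) and Prtn3 (0.03 ± 0.47) had means near 0, with arrays on both sides of 0. Among other granule genes, Ctsg met the rule for SVF, with -1.26 and -1.12. Camp (-1.10 ± 0.41), Ngp (-1.11 ± 0.97), Elane (-0.52 ± 1.53), Ltf (-0.23 ± 0.33) and Mmp8 (0.38 ± 1.62) did not meet it. Elane had -1.61 and 0.56 and Mmp8 had 1.53 and -0.76, so their arrays disagreed. Lcn2 (1.90 ± 0.19) was the 1 higher in testis. In epididymis over SVF 6 of the 18 were higher in SVF and 2 in epididymis, with Chil3, a chitinase-like gene that macrophages also express, at -4.57 ± 0.82 and Retnlg at -4.15 ± 0.91. Il1r2 stood there at -4.18 ± 1.61 and Clec4d at -3.43 ± 0.85, and Mmp9 and Camp also met the rule for SVF. The iron- and siderophore-binding genes Ltf and Lcn2, which epithelia also make, were 6.35-fold and 12.2-fold higher in epididymis than in SVF. Of 16 monocyte and macrophage genes, SVF exceeded testis for 14 and epididymis for 13, and the reverse held for 0 and 1. That 1 was Plac8, with 2.49 and 1.69 in epididymis over SVF. Ctss, a lysosomal protease gene, stood at -5.92 ± 0.44 in testis over SVF, and Mrc1, the mannose receptor gene, at -4.74 ± 0.42 in epididymis over SVF. In epididymis over testis S100a8 met the rule and S100a9 did not. There epididymis exceeded testis for 7 of the 16 monocyte and macrophage genes, with a median of 0.95. The reverse held for 1, Fcgr1, at -1.28 ± 0.07. Plac8 stood at 3.25 ± 0.38, Ctss at 2.93 ± 0.04 and the macrophage surface gene Adgre1 at 2.07 ± 0.11. Epididymis exceeded testis for 3 of the 18 neutrophil genes (Lcn2, Mmp9 and Ltf), with a median of -0.09. The reverse held for 2 (Chil3 and Csf3r), and both counts lie near or below the shares of named genes. Whether these cells contributed to the S100a8 and S100a9 ratios was not tested.

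S100a6 and S100a4 were higher in SVF than in both other tissues by the gene mean. S100a6, or calcyclin, which binds the Cacybp protein, had -4.08 and -4.58 in testis over SVF, a mean of -4.33 ± 0.35. Its epididymis over SVF ratios were -3.24 and -3.13 (mean -3.18 ± 0.08), and its epididymis over testis ratios 2.34 and 2.32, so that epididymis was 5.03-fold higher than testis. The arrays of a pair were close, but the sum around the loop was 1.18, so the 3 comparisons of this gene do not close to within their SD, and this was the largest loop sum in size among the 8 members. S100a4, which binds the heavy chain of non-muscle myosin, had -2.76 and -3.44 in testis over SVF (mean -3.10 ± 0.48). In epididymis over SVF it had -3.03 and -3.25, a mean of -3.14 ± 0.16. In epididymis over testis its mean was 0.55 ± 0.65 and it was not counted.

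The small SD of the S100a4 mean hides a gap between its probes. Probe 12863, annotated to a RefSeq mRNA, had -4.12 and -5.95 in testis over SVF and -5.08 and -6.09 in epididymis over SVF. Probe 22890, annotated to a cDNA clone, had -1.41 and -0.93 in testis over SVF and -0.98 and -0.41 in epididymis over SVF. The first probe gave a 32.8-fold and a 48.0-fold higher level in SVF, and the second one a 2.25-fold and a 1.62-fold higher level. Read from the second probe alone, S100a4 met the size rule in no comparison, and the members higher in SVF came to 7 against testis and 5 against epididymis. In epididymis over testis probe 12863 had 2.62 and -0.49, opposite in sign between the dye orientations. Which probe reports the S100a4 mRNA was not tested.

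**Figure D2:**
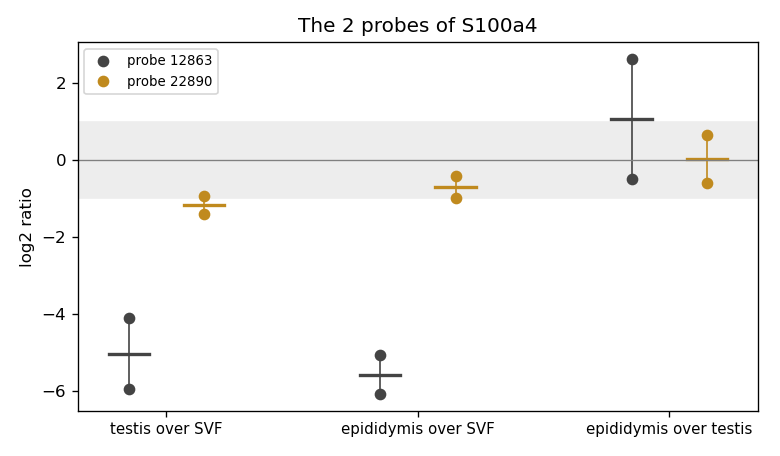
Log2 ratios of the 2 probes annotated S100a4 in the 3 comparisons. Points are the 2 arrays of a dye swap, short bars their means, and the grey band ratios under 2-fold. Probe 12863 lies at -5.03 and -5.58 on average against SVF, while probe 22890 lies at -1.17 and -0.69.

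S100a10 and S100a11, the annexin partners, had close ratios in epididymis over testis and different ones against SVF. S100a10, which binds annexin A2 and has lost calcium binding, had -4.80 and -5.15 in testis over SVF (mean -4.98 ± 0.25, 31.5-fold higher in SVF) and -2.42 and -2.85 in epididymis over SVF (mean -2.64 ± 0.31). Its epididymis over testis ratios were 3.03 and 3.16, or 8.55-fold higher in epididymis. Its sum around the loop was 0.76, above each of its SDs, so these comparisons do not close to within their SD either. S100a11, which binds annexin A1, had -2.75 and -3.09 in testis over SVF (mean -2.92 ± 0.24) and 3.00 and 2.73 in epididymis over testis. In epididymis over SVF it had -0.13 and 0.01, a mean of -0.06 ± 0.10, so these tissues did not differ beyond the spread between arrays. S100a10 was thus below S100a11 by 2.29 and 2.87 log2 units in epididymis over SVF, whereas in epididymis over testis the genes differed by 0.03 and 0.43.

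Annexin transcripts were set beside these members. Of 12 measured annexins, SVF exceeded testis for 7 (16% of named genes), and testis exceeded SVF for 1, Anxa13 (20.7% of named genes). Against SVF, 3 were lower in epididymis (8.68% of named genes) and 1 was higher (10.2%). In epididymis 6 were higher than in testis (14.3%), with none lower (18%). Anxa1, the S100a11 partner, had -5.54 and -6.40 in testis over SVF, and -2.12 and -2.91 in epididymis over SVF. Anxa2, the S100a10 partner, had -1.73 and -2.07 in testis over SVF and 1.37 and 0.92 in epididymis over SVF. In epididymis over SVF the partner pairs did not run in parallel. The Anxa1 ratio was low there where that of S100a11 was near 0. The Anxa2 ratio was above 0 where that of S100a10 was low. In the other comparisons both pairs went the same way, with each gene meeting the rule for SVF over testis and for epididymis over testis. Means of epididymis over testis were 4.36 for Anxa1, 2.87 for S100a11, 3.04 for Anxa2 and 3.10 for S100a10.

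S100a1 and S100a13 start within the shared window shown above and are transcribed away from each other. S100a1, known for its action on calcium cycling in heart muscle, had the smallest testis over SVF ratio in size among the members, -1.49 and -1.62 (mean -1.56 ± 0.09, 2.94-fold higher in SVF). In epididymis over SVF it had 0.13 and -0.42, which lie on both sides of 0, and in epididymis over testis it had 1.63 and 1.31. S100a13, which takes part in the export of the growth factor Fgf1, had -3.64 and -4.16 in testis over SVF (mean -3.90 ± 0.37) and -2.71 and -3.56 in epididymis over SVF (mean -3.14 ± 0.61). Its epididymis over testis ratios were 1.22 and 0.75, and it was not counted. The S100a13 ratio was below the S100a1 ratio by 2.14 and 2.54 log2 units in testis over SVF and by 2.84 and 3.15 in epididymis over SVF, but by 0.41 and 0.56 in epididymis over testis.

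The estimated order of the tissues was SVF, then epididymis, then testis for all 8 members, by a least-squares estimate over the loop. Testis was also the lowest by this estimate for every other S100 gene measured, and S100a3 had the same full order. A last place of testis was thus not particular to the members. How many named genes have this order was not counted. SVF and epididymis did not differ by the size rule for S100a11 and S100a1, and epididymis and testis did not for S100a4, S100a9 and S100a13.

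Other S100 genes were measured for comparison. Of 8 such genes, 1 exceeded testis in SVF, beside 16% of named genes. By the rule 0 differed between epididymis and SVF, where 8.68% of named genes were higher in SVF and 10.2% in epididymis. Both counts lie near these shares. In epididymis over testis 2 were higher in epididymis, beside 14.3% of named genes. The first was S100a16, at -2.46 and -3.52 in testis over SVF, 0.04 and -0.07 in epididymis over SVF, and 3.12 and 3.25 in epididymis over testis, values close to those of S100a11. The other was S100g, a calcium buffer of absorptive epithelia, at 1.57 ± 0.79 in epididymis over testis. S100b, S100a14, S100a3, S100a5, S100a7a and S100pbp, which encodes an S100P-binding protein and no S100 protein, met the rule in no comparison. S100a3 had -2.54 and 0.96 in epididymis over SVF, so its arrays disagreed.

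On chromosome 3 of GRCm38.p6 the measured S100 genes lie in the order S100a1, S100a13, S100a14, S100a16, S100a3, S100a4, S100a5, S100a6, S100a7a, S100a8 and S100a9, and after 56 protein-coding genes S100a11 and S100a10. Members with large ratios lay next to S100 genes that met the rule in no comparison. S100a5, between S100a4 and S100a6, stood at -0.82 ± 0.19 in testis over SVF, and S100a7a, between S100a6 and S100a8, at -0.70 ± 0.63.

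**Figure D3:**
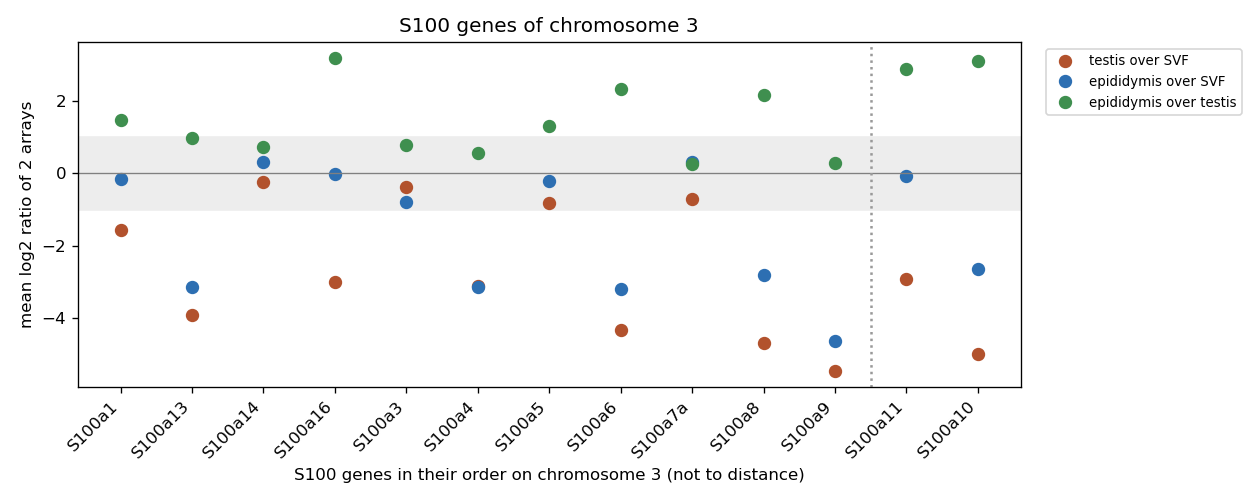
Mean log2 ratios of the 13 measured S100 genes of chromosome 3 in their order along it, not to distance, for the 3 comparisons. The dotted line marks the gap of 56 protein-coding genes before S100a11, and the grey band ratios under 2-fold. S100a14, S100a3 and S100a7a lie in the band in every comparison, between genes that lie outside it in testis over SVF.

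Genes of S100 targets and receptors were read from a list. Of 17 measured, SVF exceeded testis for 10 (16% of named genes). SVF exceeded epididymis for 4 (8.68%) and the reverse held for 1 (10.2%). Epididymis exceeded testis for 6 (14.3%) and the reverse held for 1 (18%). Tlr4, a receptor for calprotectin, had -2.00 and -2.43 in testis over SVF, and its co-receptor gene Ly96 had -2.73 and -3.06. Both missed the rule in epididymis over SVF, at -0.91 and -0.83 on average. In epididymis over testis Tlr4 had -0.67 and -0.62, whereas its ratios against SVF place epididymis above testis. The 3 comparisons of Tlr4 thus do not close. Ager, a receptor for several S100 proteins, had -1.11 and 0.08 in testis over SVF. The calcyclin partner Cacybp had 1.25 and 0.24 in testis over SVF, unlike S100a6. Myh9, the myosin heavy chain, stood at -2.76 in testis over SVF and -0.79 in epididymis over SVF, and Plat, the plasminogen activator that S100a10 binds, at -2.85 ± 0.26 and -2.74 ± 0.15. Of 19 other EF-hand genes, testis exceeded SVF for 5 (20.7% of named genes) and SVF exceeded testis for another 5 (16%). In testis over SVF the centrin gene Cetn1 had 4.72 and 5.29 and the calcium sensor gene Sri -3.23 and -3.33.

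Stromal and vascular markers are given beside the members. Of all named genes, SVF exceeded testis for 16% and epididymis for 8.68%, and epididymis exceeded testis for 14.3%. Of 17 fibroblast and stromal genes, SVF exceeded testis for 17 (median -4.00) and epididymis for 14 (median -2.90), and epididymis exceeded testis for 11 (median 1.77). Of 10 endothelial genes, SVF exceeded testis for 7 and epididymis for 6. The matrix gene Dcn stood at -5.03 ± 0.06 in testis over SVF, and Pdgfrb, a pericyte and fibroblast receptor gene, at -3.62 ± 0.20 in epididymis over SVF. Whether the share of such cells bears on the member ratios was not tested.

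**Figure D4:**
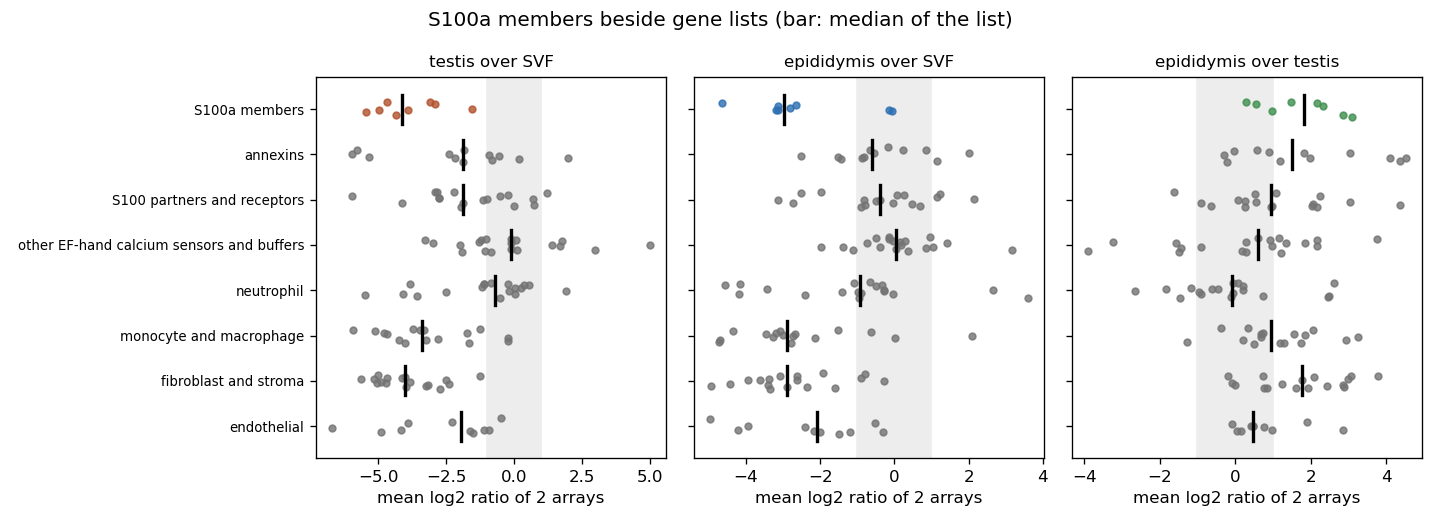
Mean log2 ratios of the S100a members and of the genes of 7 lists in the 3 comparisons; each point is a gene, the black bar is the median of the list and the grey band marks ratios under 2-fold. The median of the members lies at -4.12 in testis over SVF, beside -4.00 for fibroblast and stromal genes and -0.69 for neutrophil genes.

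The genes nearest to each member were found by the Euclidean distance over the 6 array values, among all named genes. For S100a8 they were Ms4a4d (distance 0.72), Sparcl1 (0.77), which encodes a matrix protein, and Ms4a7 (0.89), a macrophage membrane gene. For S100a9 they were Klra8 (1.23), a natural killer cell receptor gene, F13a1 (1.27), the coagulation factor XIII A chain, and Plek (1.34), the platelet and leukocyte protein pleckstrin. For S100a6 they were Fcgrt (0.44), the Fc receptor for IgG transport, Tyrobp (0.49), an adaptor of myeloid receptors, and Prelp (0.63), a matrix proteoglycan gene. For S100a4, by the mean of its probes, they were Rsad2 (0.49), Selp (0.63) and Plac9a (0.63).
For S100a10 they were the kinase gene Sgk1 (0.61), the pseudokinase gene Trib1 (0.82) and the caveolin gene Cav1 (0.96). For S100a11 they were Plgrkt (0.32), a plasminogen receptor gene, Idh2 (0.45) and Lgalsl (0.45). For S100a13 they were the fatty acid receptor gene Cd36 (0.51), Klra3 (0.51) and Zfp36l2 (0.52). For S100a1 they were Nol7 (0.23), the ribosomal protein gene Rpl31 (0.24) and Dazap2 (0.27).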

How the data were processed

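The table deposited by the authors holds 1 log ratio per probe and array, read here as log2 of Cy5 over Cy3, and how the authors made these log2 values (base, background correction, centring, direction) is not stated in the labels. As deposited, the column medians lay between 0.0053 and 0.114. Per the labels, RNA was extracted with Qiagen reagents and labelled with Ambion reagents. Arrays of opposite dye orientation had their ratio turned round. Probes were named from the platform annotation, matched to the GRCm38.p6 gene table by gene ID (20456), symbol (220) or synonym (249); 157 were not matched, 30 had several genes and 4232 had no annotation row. A gene's value on an array was the mean over its probes. No intensities or background flags were used here, so it is not known which transcripts were above background, and a signal near background can shrink or inflate a ratio. Precision is limited by the number of arrays. The size rule was a log2 ratio of at least 1 in the same direction on both arrays, and was tested on simulated data. With 1 RNA sample per tissue no test was made, and protein sequences were not used here. The members and lists were chosen with earlier results of these data known. Named genes were all members, other S100 genes and the 3 nearest genes of each member. Genes with the largest ratios in a list or against its median were also named. Other list genes were named as partners or granule genes after their values were seen. These were Ager, Tlr4, Cacybp, Myh9, Mpo, Prtn3, Ctsg, Camp, Ngp, Elane and Mmp8, and Anxa1, Anxa2, Ltf or Ly96 where not among those above. Csf3r was likewise named after its value was seen, as a neutrophil gene that met the size rule. Alternatives were median centring, a least-squares loop estimate, single probes, 4-fold on both arrays, a 2-fold mean, natural logarithms and each array left out. Calculations used Python 3.11.15 with pandas 2.3.3 and numpy 2.4.6.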

Additional observations from a re-analysis of the deposited data

How the results depend on the processing

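No paired analysis was possible because the labels give no replicate numbers and the 2 arrays of a dye swap carry the same RNAs. Member counts kept within 1.5 times of the values above under every alternative run, except that at 4-fold on both arrays 3 in place of 5 members were higher in epididymis than in testis. From single arrays that count was 5 to 7, with S100a4 and S100a13 added on the first array. No member that met the size rule changed sign. Read as natural logarithms, the testis over SVF ratios became -2.25 for S100a1, -4.47 for S100a4, -6.25 for S100a6, -6.77 for S100a8, -7.87 for S100a9, -7.18 for S100a10, -4.22 for S100a11 and -5.63 for S100a13. Those of epididymis over SVF became -4.53 for S100a4, -4.59 for S100a6, -4.06 for S100a8, -6.69 for S100a9, -3.81 for S100a10 and -4.52 for S100a13. Those of epididymis over testis became 2.12 for S100a1, 3.36 for S100a6, 3.12 for S100a8, 4.47 for S100a10, 4.14 for S100a11 and 1.42 for S100a13. The loop estimate moved S100a6 to -4.73 in testis over SVF, -2.79 in epididymis over SVF and 1.94 in epididymis over testis, S100a10 to -5.23 in testis over SVF and 2.84 in epididymis over testis, and S100a4 to -2.94 in epididymis over SVF. Median centring moved S100a6 to 2.31 in epididymis over testis. The single probes of S100a4 gave -5.03 and -1.17 in testis over SVF and -5.58 and -0.69 in epididymis over SVF. List counts were summed over the 3 comparisons. At 4-fold they were 11 for S100 partners and receptors (22 at 2-fold), 9 for annexins (18), 9 for endothelial genes (15), 21 for late spermatid genes (35) and 8 for other EF-hand genes (25). The other S100 genes met the rule 3 times, 6 times by the loop estimate and 5 times as natural logarithms. From single arrays, these counts were 4 to 6 for other S100 genes and 28 to 33 for neutrophil genes, against 20 from both arrays; needing only 1 array makes the rule easier to meet. Reading as natural logarithms makes every ratio larger in size by the same factor, and 4-fold is a stricter rule. Those shifts therefore follow from the settings. The cause of the other shifts was not tested.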

Other observations

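The stretch of chromosome 3 between S100a9 and S100a11 holds 56 protein-coding genes in the GRCm38.p6 gene table, many of them genes of the skin barrier, and 37 were measured. By the size rule testis exceeded SVF for 3 of the 37 (20.7% of named genes) and SVF exceeded testis for 2 (16%). The median was -0.02. In epididymis over SVF 2 were higher in epididymis (10.2% of named genes) and none in SVF (8.68%). In epididymis over testis 3 were higher in testis (18%) and none in epididymis (14.3%). Genes of this stretch thus met the rule less often than named genes at large. Every gene that met the rule is named here, after its value was seen. Smcp, which encodes a protein of the sperm mitochondrial capsule, had 4.28 and 2.74 in testis over SVF, and Lelp1 had 3.83 and 3.08. Both were higher in epididymis than in SVF as well, with 3.07 and 1.88 for Smcp and 3.33 and 1.46 for Lelp1. Sprr2k, of the small proline-rich family, had 2.46 and 2.59 in testis over SVF and -2.37 and -2.18 in epididymis over testis. SVF exceeded testis for the epidermal genes Flg, which encodes filaggrin, and Lce1g, with -2.58 and -1.71 for Flg and -1.25 and -1.70 for Lce1g.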
